A study of Mus musculus with 10 samples.

Results

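The genes described here are 10 genes of the interferon gamma, interleukin 12 and interleukin 15 circuit, chosen by symbol from the 18223 genes of the deposited table: the cytokine genes Ifng, Il12a, Il12b and Il15, the interleukin 12 receptor genes Il12rb1 and Il12rb2, the interferon gamma receptor genes Ifngr1 and Ifngr2, and the type I interferon receptor genes Ifnar1 and Ifnar2. They were measured by RNA-seq in whole tumours under the skin, formed by MC38, a colon adenocarcinoma line of mouse origin that grows in mice with an intact immune system. High tumour burden (HTB, 5 libraries) and low tumour burden (LTB, 5 libraries) were compared. HTB is labelled with 2000000 and LTB with 500000, each for 14 days, taken here to mean tumour cells given and how long the tumours grew. No other treatment is given for either group, and the labels give no mouse strain, sex or age and no measured tumour size. Nor do they say that each library came from a separate animal, so p-values measure the spread between these libraries.

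Interferon gamma is made mainly by activated T cells and natural killer (NK) cells, and its receptor, a pair of IFNGR1 and IFNGR2 chains present on most cell types, signals through the kinases JAK1 and JAK2. Interleukin 12 is a heterodimer of p35 (Il12a) and p40 (Il12b) made by dendritic cells and macrophages. On T and NK cells it binds IL12RB1 and IL12RB2, signals through STAT4, and raises interferon gamma production. Interleukin 15 is presented on the surface of myeloid and stromal cells by its alpha receptor chain and sustains NK and CD8 T cells, while IFNAR1 and IFNAR2 together form the receptor for type I interferons.

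The HTB libraries held 24884292 to 27185168 estimated reads each, and the LTB libraries 23070917 to 26880191. Values are in CPM, reads scaled to a common library size, on totals adjusted by trimmed mean of M-values (TMM), and log2 fold changes are HTB over LTB. HTB replicate 2 stood apart by muscle and fat RNA, with a summed level of 14086 CPM over 8 skeletal muscle markers; the remaining HTB libraries had 7.72 to 55.3 CPM, and LTB had 4.24 to 6.85 CPM. Markers of epithelial tumour cells were low in both groups. The 7 such genes in the table together reached 2.82 to 7.07 CPM in the HTB libraries, against 6.54 to 16.2 CPM in the LTB libraries. Krt18 was at the detection limit, with 8 reads in HTB and 0 in LTB.

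Regulatory sequence of the genes is shown for the 4 promoters, of 8 member genes matched in the RefSeq promoter table (build GRCm38.p6), that held a match to the gamma-activated site (GAS), searched as TTCNNNGAA. Each window runs from 250 bases before to 50 bases after the start site and is printed 5′ to 3′ on the gene's own strand, with GAS matches, and the TATA box of Ifng, in capitals.
Ifng, chr10:118440796-118441095, plus strand: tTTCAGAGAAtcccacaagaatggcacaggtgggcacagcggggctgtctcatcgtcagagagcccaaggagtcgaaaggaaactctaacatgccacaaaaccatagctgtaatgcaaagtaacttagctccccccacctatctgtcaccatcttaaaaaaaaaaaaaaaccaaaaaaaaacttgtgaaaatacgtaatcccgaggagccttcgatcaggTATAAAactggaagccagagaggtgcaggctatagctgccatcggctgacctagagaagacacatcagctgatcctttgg
Il12rb2, chr6:67376139-67376438, minus strand: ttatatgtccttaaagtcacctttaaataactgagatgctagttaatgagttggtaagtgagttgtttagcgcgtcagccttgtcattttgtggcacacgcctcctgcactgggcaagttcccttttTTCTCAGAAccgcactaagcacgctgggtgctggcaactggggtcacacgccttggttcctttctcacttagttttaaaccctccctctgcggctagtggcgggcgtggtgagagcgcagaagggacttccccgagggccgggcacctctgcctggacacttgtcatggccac
Ifnar1, chr16:91484965-91485264, plus strand: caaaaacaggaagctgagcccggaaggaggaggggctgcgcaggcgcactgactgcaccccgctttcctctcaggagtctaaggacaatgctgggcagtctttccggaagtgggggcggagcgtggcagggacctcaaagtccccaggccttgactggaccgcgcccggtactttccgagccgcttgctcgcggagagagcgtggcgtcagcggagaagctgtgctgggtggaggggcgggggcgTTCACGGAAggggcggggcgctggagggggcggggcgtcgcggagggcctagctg
Ifnar2, chr16:91372533-91372832, plus strand: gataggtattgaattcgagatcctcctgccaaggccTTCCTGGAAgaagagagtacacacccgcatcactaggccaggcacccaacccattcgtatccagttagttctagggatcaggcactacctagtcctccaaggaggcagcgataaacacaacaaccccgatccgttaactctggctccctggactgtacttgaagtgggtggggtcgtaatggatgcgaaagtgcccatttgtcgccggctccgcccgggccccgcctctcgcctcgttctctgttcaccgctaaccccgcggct
The GAS letters, which read the same on both strands, began at base -249 of Ifng, -123 of Il12rb2, -5 of Ifnar1 and -214 of Ifnar2, counted from the start site, and occurred in 8.3% of the 32851 promoter windows of that table. The letters TATAAA, searched on both strands, began at base -30 of Ifng and occurred in 13.6% of windows. No GAS letters were found in the windows of Ifngr1, Ifngr2, Il12a and Il12b. Of the 4 genes printed, Ifng and Il12rb2 were called lower in HTB and Ifnar1 and Ifnar2 were not called, so a match in the window went with both outcomes.

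In HTB tumours the cytokine genes Ifng, Il12b and Il15 and both interleukin 12 receptor genes were lower than in LTB tumours, while the 4 interferon receptor genes changed by at most 1.25-fold. Of the 10 genes, 9 passed the filter on low counts and were tested. At an adjusted p under 0.05 (edgeR quasi-likelihood test, Benjamini-Hochberg adjustment over all 13469 genes tested), 6 of the 9 were lower in HTB and 0 were higher, where 7.51% of all genes tested were lower and 3.91% higher. The count of 6 became 3 without HTB replicate 3 or 4, or without LTB replicate 1, 2 or 3. The median log2 fold change of the 9 was -0.73, against 0.02 over all genes tested. Il12b passed the filter through LTB, where all 5 libraries reached its level of 0.375 CPM, against 2 of 5 in HTB, so its share in these counts was partly set by the filter.

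**Figure D1:**
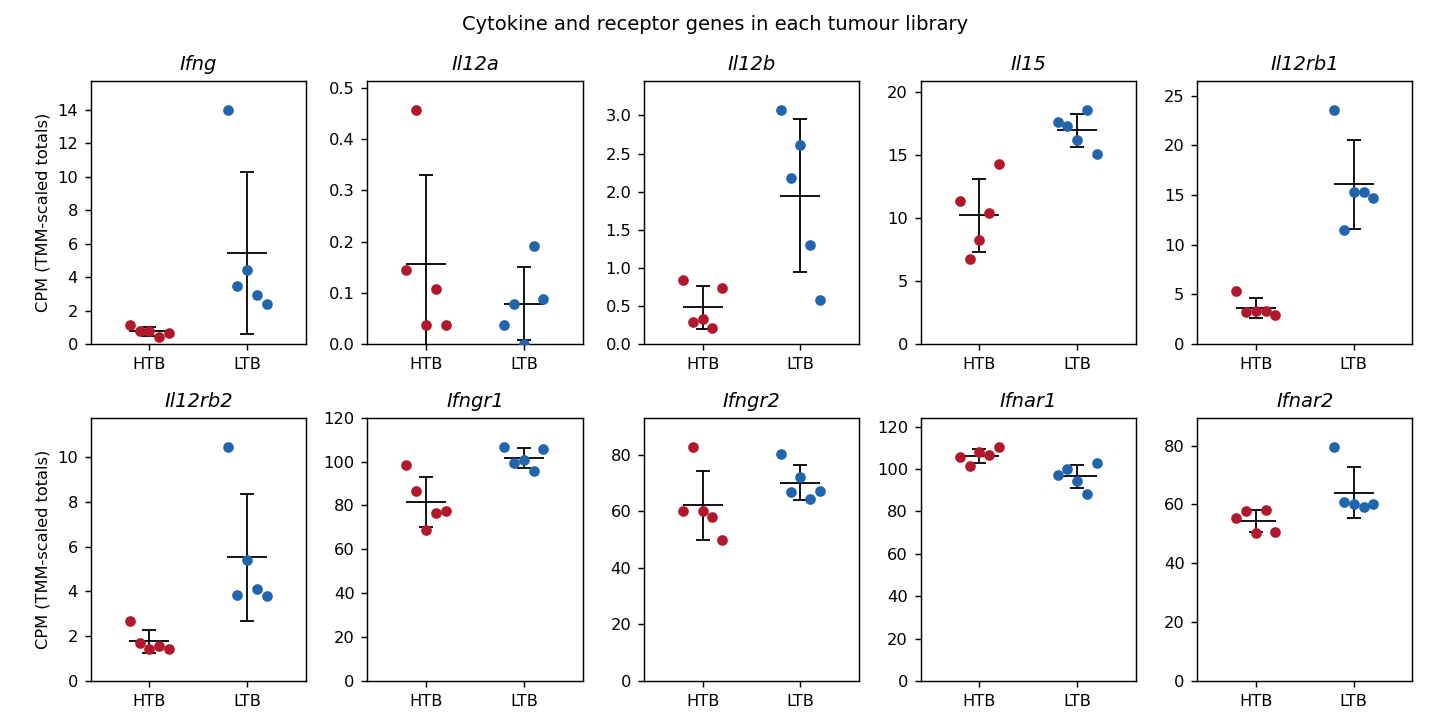
CPM of each of the 10 genes in every library, on separate linear axes that start at 0; points are libraries in replicate order, the horizontal line is the group mean and the bar its SD (n = 5), which is cut at 0 for Il12a in HTB. HTB lies wholly below LTB for Ifng, Il15, Il12rb1, Il12rb2 and Ifnar2, and Il12a stays under 0.5 CPM in every library.

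Ifng, which encodes interferon gamma, had 1.17, 0.788, 0.769, 0.435 and 0.659 CPM in HTB replicates 1 to 5, against 14.0, 3.46, 4.44, 2.94 and 2.40 CPM in LTB replicates 1 to 5. The highest HTB library lay below the lowest LTB library, and LTB replicate 1 stood far above the other LTB libraries. In reads, these values rest on 102 in HTB and 693 in LTB, and the fitted change was a 7.10-fold fall (log2 fold change -2.83 ± 0.52 SE, adjusted p = 0.0089, edgeR). The call held without each library in turn, with log2 fold changes between -3.03 and -2.11 and adjusted p between 0.0039 and 0.0294 (edgeR). The deposited table gives Ifng (NCBI gene 15978) a GRCm38 interval of chr10:118441046-118445894; 336 bases (25.9%) of its GENCODE M21 exons are shared with the unclassified gene model Gm49751 on the same strand. In whole tumours, fewer cells of a type and less RNA per cell cannot be told apart.

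Il12b (NCBI gene 16160, chr11:44400063-44414677), which encodes the p40 subunit shared by interleukins 12 and 23, had 0.838, 0.290, 0.329, 0.217 and 0.733 CPM in HTB, against 3.07, 2.18, 2.61, 1.30 and 0.578 CPM in LTB. The groups overlapped through LTB replicate 5, which lay below HTB replicates 1 and 5. With 65 reads in HTB and 245 in LTB, Il12b fell 4.01-fold (log2 fold change -2.0 ± 0.50 SE, adjusted p = 0.0302, edgeR). The call was lost without HTB replicate 3 (adjusted p = 0.0787, edgeR), HTB replicate 4 (adjusted p = 0.0738), LTB replicate 1 (adjusted p = 0.066), LTB replicate 2 (adjusted p = 0.0553) or LTB replicate 3 (adjusted p = 0.069), at log2 fold changes of -1.96 to -1.78.

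Il12a (NCBI gene 16159, chr3:68690644-68698550), which encodes the p35 subunit that completes interleukin 12, was at the detection limit. It had 4, 11, 1, 3 and 1 reads in HTB replicates 1 to 5 and 1, 2, 0, 5 and 2 reads in LTB replicates 1 to 5. More than 0.375 CPM was reached only in HTB replicate 2, the library rich in muscle and fat RNA, so no test was made in the filtered fit. With no filter on low counts the log2 fold change was 0.92 (adjusted p = 0.508, edgeR), and a difference was not detectable at this depth. By their means per kilobase of exon, Il12b was above Il12a in both groups: Il12b averaged 0.245 CPM per kb and Il12a 0.0922 CPM per kb in HTB, and Il12b averaged 0.989 and Il12a 0.0465 CPM per kb in LTB. In HTB replicate 2 Il12a was the higher, and without that library Il12a averaged 0.0482 CPM per kb in HTB.

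Il15 (NCBI gene 16168, chr8:82331624-82403272, minus strand), which encodes interleukin 15, had 11.3, 6.72, 8.27, 10.4 and 14.2 CPM in HTB, against 17.6, 17.3, 16.2, 18.5 and 15.1 CPM in LTB. The LTB libraries lay close together, and the HTB libraries were all lower and more spread out. Averages were 10.2 ± 2.89 CPM in HTB and 16.9 ± 1.32 CPM in LTB (SD, n = 5 each), and Il15 fell 1.66-fold (log2 fold change -0.73 ± 0.18 SE, adjusted p = 0.0272, edgeR). The lowest HTB value belonged to replicate 2; without that library the log2 fold change was -0.61. Without HTB replicate 3 or 4, or LTB replicate 1, 2, 3 or 4, the adjusted p was 0.0715, 0.0636, 0.0529, 0.0518, 0.0531 and 0.0588 in that order (edgeR), and the call was lost.

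Il12rb1 (NCBI gene 16161, chr8:70808359-70821424), which encodes the receptor chain shared by interleukins 12 and 23, had 5.35, 3.20, 3.37, 3.33 and 2.89 CPM in HTB, against 23.5, 11.5, 15.3, 15.3 and 14.7 CPM in LTB. Every HTB library was below every LTB library, and replicate 1 was the highest in each group. The fall was 4.42-fold (log2 fold change -2.15 ± 0.22 SE, adjusted p = 7.26e-04, edgeR), the smallest p of the 10 genes, and without each library in turn the adjusted p stayed between 6.73e-04 and 0.0041.

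Il12rb2 (NCBI gene 16162), which encodes the chain that recruits STAT4 and marks cells able to respond to interleukin 12, had 2.70, 1.70, 1.43, 1.56 and 1.43 CPM in HTB, against 10.5, 3.85, 5.39, 4.12 and 3.78 CPM in LTB. Again no libraries of the groups overlapped and replicate 1 was the highest in each group. Il12rb2 fell 3.13-fold (log2 fold change -1.64 ± 0.33 SE, adjusted p = 0.0121, edgeR), and leaving out LTB replicate 1 put it at -1.28 (adjusted p = 0.0118, edgeR). Il12rb2 lies on chromosome 6 from 67291317 to 67376293 in the deposited table, which lists the plus strand, whereas GENCODE M21 gives the minus strand. In GENCODE M21, 1519 bases (40.0%) of its exons overlap those of Serbp1 on the opposite strand. Serbp1, an RNA-binding protein gene, had 685 to 842 CPM in HTB libraries and 566 to 785 CPM in LTB libraries (log2 fold change 0.16, adjusted p = 0.263, edgeR). Since the strand setting of the counting is not given, the part of Serbp1 reads in the Il12rb2 value was not tested.

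**Figure D2:**
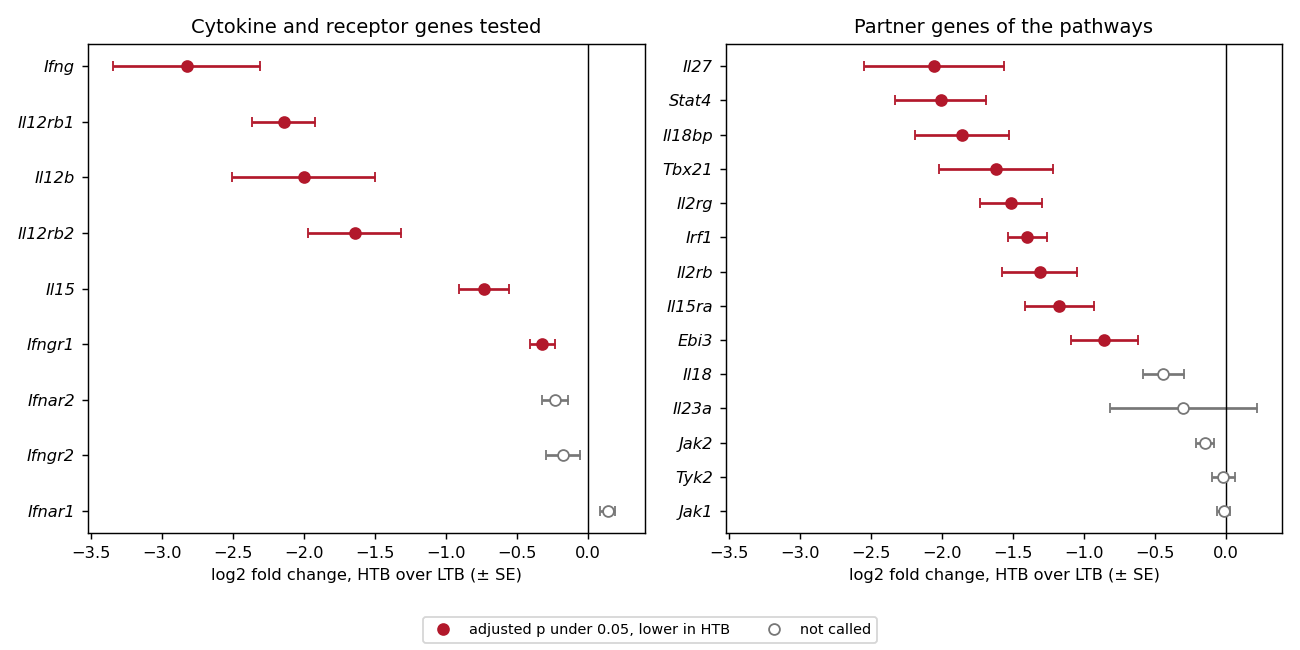
Log2 fold change of HTB over LTB with its SE for the 9 tested genes of the circuit (left) and for named partner genes (right); filled points are lower in HTB at an adjusted p under 0.05 and open points are not called. Ifng has the largest fall on the left at -2.83, and Jak1, Jak2 and Tyk2 sit at -0.14 to -0.01 on the right.

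The interferon gamma receptor genes changed far less than the cytokine. Ifngr1 (NCBI gene 15979, chr10:19591958-19610225), the ligand-binding chain, had 98.4, 86.7, 68.7, 76.4 and 77.6 CPM in HTB, against 107, 99.6, 101, 95.8 and 106 CPM in LTB. HTB replicate 1 lay inside the LTB range and the other HTB libraries below it. The fall was 1.25-fold (log2 fold change -0.32 ± 0.09 SE, adjusted p = 0.0445, edgeR). This call was close to the threshold. It held without HTB replicate 1 or 2, and was lost without any other single library (HTB replicates 3, 4 and 5 and LTB replicates 1 to 5), at adjusted p between 0.0609 and 0.107 (edgeR). Keeping genes of low count in the fit also ended it (adjusted p = 0.06, edgeR).

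Ifngr2 (NCBI gene 15980, chr16:91547091-91564007), the signalling chain, had 60.0, 82.7, 60.1, 57.8 and 49.9 CPM in HTB, against 80.1, 66.9, 72.0, 64.3 and 67.3 CPM in LTB. HTB replicate 2 was the highest of all 10 libraries and the other 4 HTB libraries were below every LTB library. Over all libraries the change was not called (log2 fold change -0.18 ± 0.12 SE, adjusted p = 0.366, edgeR), and without HTB replicate 2 Ifngr2 was called lower at -0.30 (adjusted p = 0.0275). In that fit 7 of the 10 genes were called, and 3040 of all genes tested against 1537 with all libraries.

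Of the type I interferon receptor genes, Ifnar1 (NCBI gene 15975, chr16:91450016-91510523) had 106, 101, 108, 106 and 110 CPM in HTB, against 97.1, 99.8, 94.2, 88.3 and 103 CPM in LTB. It was the only one of the 9 tested genes with a positive fold change, and only LTB replicate 5 reached into the HTB range (log2 fold change 0.14 ± 0.05 SE, adjusted p = 0.114, edgeR). DESeq2's Wald test gave 0.15 with an adjusted p of 0.0436. Ifnar2 (NCBI gene 15976, chr16:91372783-91426065), the other chain, had 55.4, 57.9, 50.1, 58.0 and 50.7 CPM in HTB, against 79.5, 60.7, 60.1, 59.2 and 60.1 CPM in LTB. Its groups did not overlap, LTB replicate 1 stood above the other LTB libraries, which lay close together, and the change was not called (log2 fold change -0.23 ± 0.09 SE, adjusted p = 0.122, edgeR). In GENCODE M21, 315 bases (9.46%) of its exons are shared with Gm21970 on the same strand. Without LTB replicate 1, its highest library, the log2 fold change was -0.14 (adjusted p = 0.169, edgeR).

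Non-overlap of the groups was counted as a description. All HTB libraries lay below all LTB libraries for 5 of the 9 tested genes (Ifng, Il12rb1, Il12rb2, Il15 and Ifnar2), where the same held for 7.06% of all genes tested. The reverse held for 0 of the 9 and for 4.68% of all genes tested. In the authors' deposited table, which gives a q-value from DESeq2, the log2 values of the 10 genes ran from -2.83 for Ifng to 0.97 for Il12a. There q was under 0.05 for the same 6 genes called lower here, from 6.86e-17 for Il12rb1 to 0.014 for Ifngr1. Ifnar1 had q = 0.0515 in the authors' deposited table.

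Levels were compared between genes per kilobase of exon, using the union of GENCODE M21 exons, which can differ from the transcripts the authors counted. Ifngr1 was the highest in both groups, at 28.6 ± 4.0 CPM per kb in HTB and 35.7 ± 1.57 CPM per kb in LTB (SD, n = 5 each), and its libraries lay above those of every other gene of the 10 in both groups. Ifnar1, Ifngr2 and Ifnar2 followed at 17.9 ± 0.56, 16.5 ± 3.25 and 16.3 ± 1.14 CPM per kb in HTB, and at 16.2 ± 0.94, 18.6 ± 1.65 and 19.2 ± 2.62 CPM per kb in LTB. These neighbours were within their spread of each other. Il15 came next at 4.51 ± 1.28 CPM per kb in HTB and 7.49 ± 0.59 CPM per kb in LTB. Il12rb1 and Ifng, neighbours in both groups, stood at 0.884 ± 0.24 and 0.590 ± 0.20 CPM per kb in HTB and at 3.92 ± 1.08 and 4.20 ± 3.73 CPM per kb in LTB. Without LTB replicate 1 the LTB means were 3.46 CPM per kb for Il12rb1 and 2.56 CPM per kb for Ifng, the same order as in HTB. Il12rb2, Il12b and Il12a were the lowest, in that order in both groups, with Il12rb2 at 0.464 ± 0.14 CPM per kb in HTB and 1.45 ± 0.75 CPM per kb in LTB.

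Subunits of a receptor did not all change alike. Log2 ratios were taken within each library from CPM not divided by gene length, so that gene length enters a ratio's level and cancels in the difference between groups. They were compared by a two-sided exact permutation test over the 10 libraries for 7 planned ratios, with Benjamini-Hochberg adjustment over the 7. The smallest p this design allows is 0.0079. The ratio of Ifnar1 to Ifnar2 was 0.93, 0.81, 1.10, 0.88 and 1.12 in HTB, against 0.29, 0.71, 0.65, 0.58 and 0.77 in LTB. It was higher in every HTB library, by 0.37 on the log2 scale (exact p = 0.0079, adjusted p = 0.0278), although neither gene was called by itself. Reads of Gm21970, if counted in Ifnar2, would enter this ratio, and their part was not tested. The deposited interval of Ifnar1 starts at 91450016, against 91485238 in GENCODE M21. That of Ifnar2 ends at 91426065, against 91405589. The ratio of Il12rb2 to Il12rb1 was higher in HTB by 0.59 (exact p = 0.0159, adjusted p = 0.037), at -1.01 ± 0.12 in HTB and -1.60 ± 0.31 in LTB (SD, n = 5 each). The reads of Serbp1 described above, if counted in Il12rb2, would enter this ratio, and their part was not tested. LTB replicate 1, at -1.16, overlapped with HTB replicate 3, at -1.18. The ratio of Ifngr1 to Ifngr2 differed by -0.14 (exact p = 0.325, adjusted p = 0.38), with HTB libraries from 0.07 to 0.71 and LTB libraries from 0.41 to 0.65. Il12b to Il12a differed by -2.16 (exact p = 0.0476, adjusted p = 0.0833) and rests on the 30 reads of Il12a. Without LTB replicate 5 that ratio passed at -2.55 (exact permutation test, adjusted p = 0.0417). The groups of 4 against 5 left without HTB replicate 1, 2, 4 or 5 gave an adjusted p of 0.0556 (exact permutation test) for Ifnar1 to Ifnar2 and for Il12rb2 to Il12rb1, and likewise for the ratio of Ifng to T and NK cell markers described next.

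**Figure D3:**
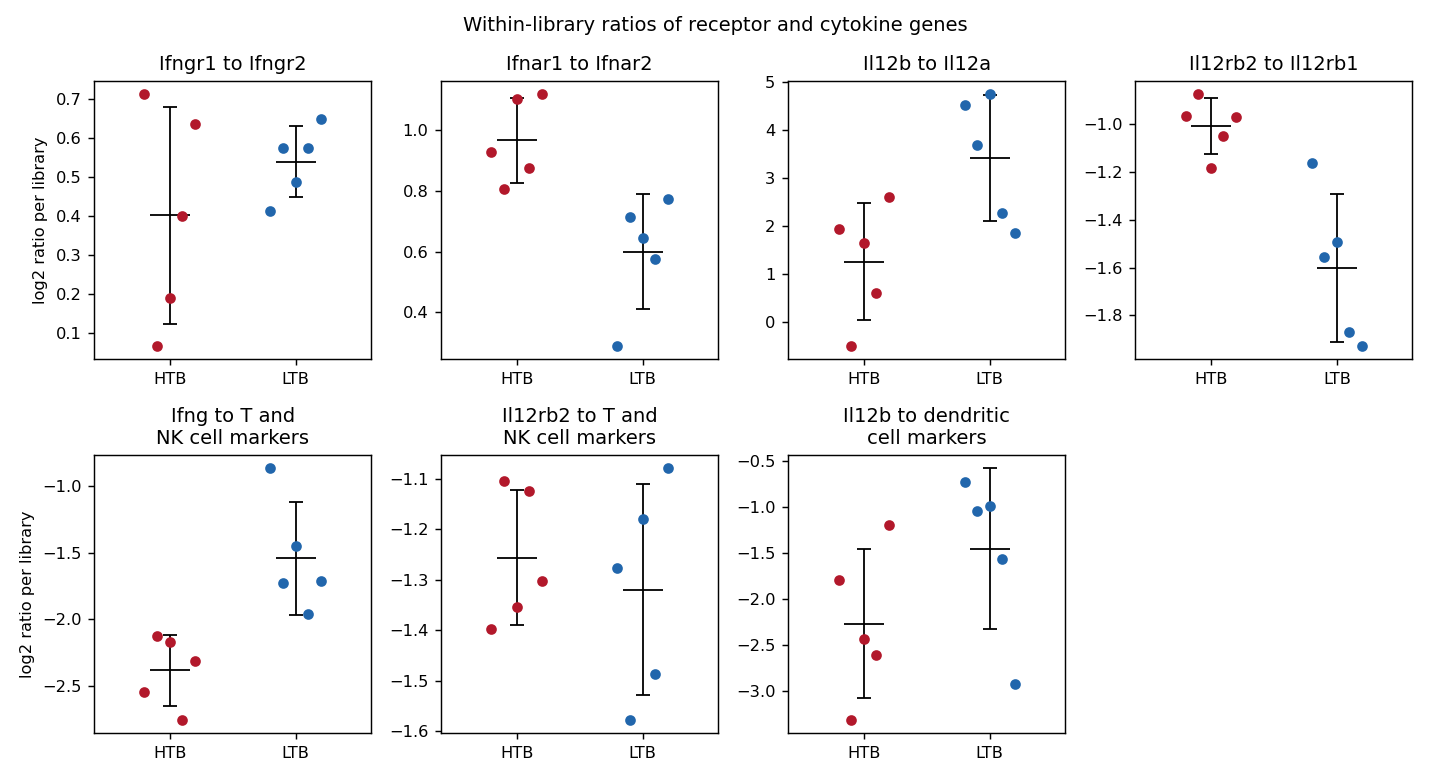
Log2 ratio in each library for the 7 planned ratios, computed as log2(CPM + 0.1) of the first gene minus that of the second gene or minus the mean over the marker list; points are libraries in replicate order, with the group mean and SD (n = 5). The ratio axes do not start at 0. HTB lies wholly above LTB for Ifnar1 to Ifnar2 and wholly below it for Ifng to T and NK cell markers.

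Ifng and the interleukin 12 receptor gene Il12rb2 were also set against markers of the cells that make or carry them. Il12rb1 was not set against these markers. T and NK cell markers were themselves lower in HTB: 9 of 11 T cell markers and 7 of 11 NK cell markers were called lower and 0 higher, with median log2 fold changes of -1.77 and -1.66. The summed level of the T cell markers was 50.5 to 107 CPM in the HTB libraries, against 111 to 386 CPM in the LTB libraries. The largest part of that sum was Thy1, also on the fibroblast list, which averaged 42.2 CPM in HTB and 90.2 CPM in LTB. The summed level of the NK cell markers was 46.9 to 180 CPM in the HTB libraries, against 229 to 628 CPM in the LTB libraries. Among T cell markers, the kinase gene Lck changed by -1.68 ± 0.34, the adhesion gene Cd2 by -2.24 ± 0.46 and the receptor complex gene Cd3d by -2.18 ± 0.50 (log2, SE). Among NK cell markers the granule gene Nkg7 changed by -1.84 ± 0.34 and the receptor genes Klrc1 and Klrk1 by -2.02 ± 0.44 and -1.64 ± 0.37. No marker of these lists was at 0 in all libraries. Cd5, a T cell marker called lower, reached the filter's level in 4 of 5 HTB and 5 of 5 LTB libraries. Its call was partly set by the filter. Ifng fell by more than the mean of these 22 markers: its log2 ratio to them was -2.54, -2.12, -2.17, -2.76 and -2.31 in HTB, against -0.86, -1.73, -1.45, -1.96 and -1.71 in LTB, a difference of -0.84 with no overlap (exact p = 0.0079, adjusted p = 0.0278). Without LTB replicate 1 the difference was -0.67, and with a pseudocount of 0.5 in place of 0.1 CPM it was -0.53 (exact permutation test, adjusted p = 0.0417).

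For Il12rb2 no difference relative to the same markers was detected, and leaving out single libraries moved it between -0.0012 and 0.12. Its log2 ratio to them was -1.26 ± 0.13 in HTB and -1.32 ± 0.21 in LTB (SD, n = 5 each), a difference of 0.06 (exact p = 0.587, adjusted p = 0.587). Reads of Serbp1, if counted in Il12rb2, would enter this ratio too, and their part was not tested. Il12b was set against 11 markers of conventional dendritic cells, of which 5 were called lower and 0 higher (median log2 fold change -0.89). Among the 5, Flt3 and Itgae reached the filter's level in 3 and 4 of 5 HTB libraries, against 5 of 5 in LTB. Their calls were partly set by the filter. Ccl22, a chemokine of activated dendritic cells and macrophages, changed by -2.42 ± 0.27, the migration receptor gene Ccr7 by -1.79 ± 0.25, and Naaa by -0.39 ± 0.09. Of the 6 not called, Zbtb46 stood at 0.19 ± 0.09, Fscn1 at 0.09 ± 0.12 and Clec9a at -0.45 ± 0.51. The others were Xcr1 at -1.28 ± 0.43, Batf3 at -0.89 ± 0.60 and Cd209a at -0.67 ± 0.75. Batf3 and Cd209a reached the filter's level in 2 and 1 of 5 HTB libraries, against 5 and 4 of 5 in LTB. The summed level of all 11 markers overlapped between the groups, at 329 to 496 CPM in the HTB libraries, against 381 to 481 CPM in the LTB libraries. Most of that sum was Fscn1, which averaged 318 CPM in HTB and 299 CPM in LTB. The log2 ratio of Il12b to these markers was -2.27 ± 0.81 in HTB and -1.45 ± 0.88 in LTB (SD, n = 5 each; exact p = 0.167, adjusted p = 0.233). LTB replicate 5, at -2.92, was the lowest LTB library by far, and without it the difference passed (-1.19, exact permutation test, adjusted p = 0.0444).

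Interferon gamma target genes were lower in HTB, as Ifng was, and whether they responded to it was not tested. Of 21 tested interferon gamma induced genes, 21 were lower in HTB (median log2 fold change -1.79), where 7.51% of all genes tested were lower. All 21 were also called lower without each library in turn. One of them, Ido1, passed the filter on low counts through LTB alone (0 of 5 HTB libraries at its level, 5 of 5 in LTB), so its call was partly set by the filter. They include Tap1, the peptide transporter of class I presentation (-1.57 ± 0.13), Nlrc5, the transactivator of class I genes (-1.06 ± 0.10), and Gbp2, a guanylate-binding GTPase (-2.45 ± 0.23); all 3 had an adjusted p of 5.93e-04 (edgeR). Of 10 signal transduction genes of the pathway, 3 fell, among them the target transcription factor gene Irf1 (-1.40 ± 0.14) and the feedback inhibitor gene Socs1 (-1.05 ± 0.22), both interferon inducible. Irf1 is also counted among the 21 induced genes. The kinase genes Jak1 and Jak2 stood at -0.01 ± 0.05 (adjusted p = 0.885) and -0.14 ± 0.06 (adjusted p = 0.16). Jak1 had 212 to 226 CPM in the HTB libraries, against 213 to 226 CPM in the LTB libraries.

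Type I interferon genes were at the detection limit. The 6 in the table, Ifnb1 and 5 others, had 12 reads in HTB and 11 in LTB over all libraries, Ifnb1 8 and 6 of them, and none was tested. Of 9 genes that carry or regulate the type I signal, 4 fell, among them Stat2 (-0.86 ± 0.13), Irf9 (-0.54 ± 0.11) and Socs1. Socs1 is also counted among the interferon gamma signal transduction genes. Of the 5 not called, Isg15 stood at -0.71 ± 0.25 (adjusted p = 0.091, edgeR) and Usp18 at -0.41 ± 0.27 (adjusted p = 0.344). Ptpn6 stood at -0.62 ± 0.19 (adjusted p = 0.0601, edgeR) and Jak1 at -0.01 ± 0.05. Tyk2, the kinase bound to IFNAR1 and to IL12RB1, stood at -0.02 ± 0.08 (adjusted p = 0.918, edgeR).

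Of 13 tested genes of the interleukin 12 family, interleukin 18 and their signalling, 8 fell and 0 rose (median log2 fold change -1.62). Stat4, the transcription factor activated by interleukin 12, had 0.989 to 2.95 CPM in the HTB libraries, against 4.85 to 9.66 CPM in the LTB libraries (-2.01 ± 0.32, adjusted p = 0.0047, edgeR), and Tbx21, which encodes T-bet, the factor of the type 1 helper lineage, changed by -1.62 ± 0.40 (adjusted p = 0.0291). Il18rap, a chain of the interleukin 18 receptor, changed by -1.62 ± 0.21 and Il18bp, the secreted inhibitor of interleukin 18, by -1.86 ± 0.33, while Il18 itself stood at -0.44 ± 0.14 (adjusted p = 0.0746). Il27 and Ebi3, which encode the chains of interleukin 27, changed by -2.06 ± 0.50 and -0.85 ± 0.23. Il27 passed the filter through LTB alone, at its level in 0 of 5 HTB and 5 of 5 LTB libraries. Il23a, the partner of p40 in interleukin 23, stood at -0.30 ± 0.52 (adjusted p = 0.738). The count of 8 became 4 without HTB replicate 3, 4 or 5 and 5 without LTB replicate 3; Tbx21, Il27 and Ebi3 are among the genes whose call was lost in at least 1 such fit, with adjusted p up to 0.0764, 0.0682 and 0.0951.

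Receptor chain genes of interleukin 15 were also lower in HTB. Of 9 tested genes of the interleukin 15 and interleukin 2 receptor pathway, 5 were lower and 0 higher, where 7.51% of all genes tested were lower. The 4 not called were Jak1 at -0.01 ± 0.05, Stat5a at -0.26 ± 0.11, Stat5b at 0.08 ± 0.07 and Cish at -0.49 ± 0.22. Il15ra, which presents interleukin 15 to neighbouring cells, had 8.48 to 18.2 CPM in the HTB libraries, against 20.9 to 38.9 CPM in the LTB libraries (-1.17 ± 0.24, adjusted p = 0.0139, edgeR). The signalling chain genes Il2rb and Il2rg changed by -1.31 ± 0.26 and -1.51 ± 0.22, and Il2ra, the high-affinity chain for interleukin 2, by -1.97 ± 0.38.

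**Figure D4:**
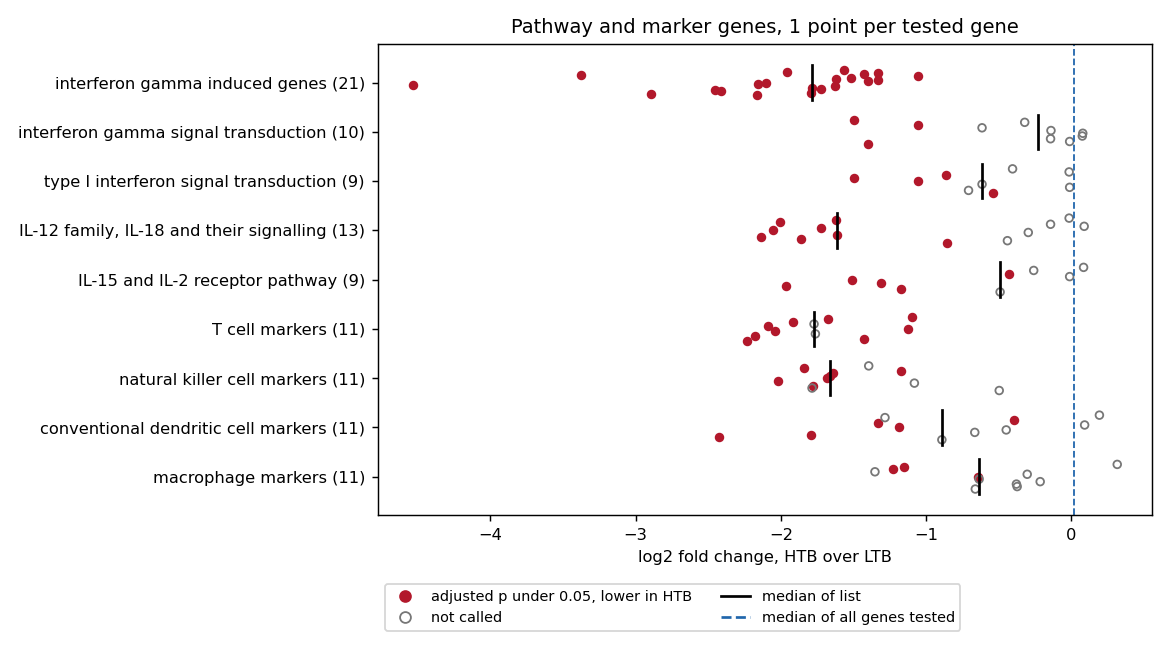
Log2 fold change of HTB over LTB for each tested gene of 5 pathway lists and 4 marker lists, with the number tested in brackets; filled points are lower in HTB at an adjusted p under 0.05, the black line is the list's median and the dashed line the median of all genes tested, 0.02. The interferon gamma induced genes all lie below -1, and no gene of these lists was called higher.

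Markers of other cells were counted beside these results. Of 11 macrophage markers 3 were lower and 0 higher: the integrin gene Itgam (-1.23 ± 0.21), the lysozyme gene Lyz2 (-1.15 ± 0.23) and Cd68 (-0.64 ± 0.19). Of the 8 not called, Mertk stood at 0.32 ± 0.20, C1qc at -0.22 ± 0.20, Csf1r at -0.30 ± 0.28 and C1qa at -0.37 ± 0.20. The others were C1qb at -0.38 ± 0.20, Cd14 at -0.64 ± 0.32, Adgre1 at -0.66 ± 0.28 and Fcgr1 at -1.35 ± 0.42. The summed level of all 11 was 743 to 1268 CPM in the HTB libraries, against 1169 to 2454 CPM in the LTB libraries. Lower calls numbered 1 of 7 for neutrophil, 0 of 8 for endothelial, 1 of 9 for fibroblast and 1 of 2 for epithelial markers. Higher calls numbered 3 of 5 for skeletal muscle and 0 of 2 for adipocyte markers. The neutrophil gene called, Il1r2, reached the filter's level in 4 of 5 HTB and 5 of 5 LTB libraries. Acta1, a muscle gene called, did so in 5 of 5 HTB and 2 of 5 LTB libraries. Both calls were partly set by the filter. The 3 muscle genes called had their highest values in HTB replicate 2, the library rich in muscle and fat RNA. Acta1 ran from 0.474 to 4062 CPM in HTB, against 0.089 to 1.10 CPM in LTB. Atp2a1 ran from 0.619 to 1799 CPM in HTB, against 0.573 to 0.812 CPM in LTB. Tnnt3 ran from 4.63 to 1623 CPM in HTB, against 1.67 to 3.07 CPM in LTB. The fibroblast gene called lower was Thy1, which is also a T cell marker of the list above. The part of a changed cell makeup in the levels of the 10 genes was not tested beyond the ratios given. With each library left out in turn, Cd68 lost its call in 9 of 10 fits. Cd3d, Klrk1 and Naaa lost theirs in 3 of 10 each, and Klrc1 in 1 of 10. The adjusted p of Cd3d, Klrk1, Klrc1, Naaa and Cd68 reached 0.0584, 0.0566, 0.0504, 0.0665 and 0.105 in that order (edgeR).

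The genes whose profile over the 10 libraries was most like that of Ifng were S1pr4, a sphingosine 1-phosphate receptor of lymphocytes, Cd2, Ccdc88b, Casp1, the inflammasome protease caspase 1, and Sla2, an adaptor that dampens antigen receptor signalling. Their root mean squared difference from Ifng in z-scored log2(CPM + 0.1) was 0.112, 0.161, 0.176, 0.182 and 0.185 in that order, against a median of 1.36 over all genes tested. Their likeness to Ifng fixes the order of their groups. S1pr4 averaged 0.860 ± 0.23 CPM in HTB and 2.54 ± 1.24 CPM in LTB (SD, n = 5 each).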

How the data were processed

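The table deposited by the authors gives each library's estimated counts (expected counts) for every gene without scaling for depth; 86.4% of values were whole to within 1e-09, and the others were rounded by at most 0.5. Per the labels' protocols, RNA came from a column purification and the sequencing libraries from a SMARTer kit; the build was GRCm38 per the submitters' processing notes, and the sources used here do not name an aligner, counting tool or strand setting. The authors' deposited log2 fold change, with its p-value and q-value from DESeq2 per the file headers, was quoted only where named; it was positive where HTB was higher for 100% of its calls. The file's 1 row that names no gene was dropped. Libraries of a group differed by more than sampling noise (chi-square per degree of freedom of at least 10.1), so each counted as 1 sample.

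Genes were tested with edgeR 4.0.16 (R 4.3.3), filterByExpr, TMM factors of 0.975 to 1.03 and group as the only term. The SE is the log2 fold change divided by the root of the F statistic. On simulated counts of 13402 genes for this comparison, 48% of 1.5-fold, 78% of 2-fold, 98% of 4-fold and 100% of 8-fold changes were recovered. The changed genes were drawn from those averaging over 1 CPM, and no outlying library was simulated. These shares do not speak for genes of lower count. Ratios used log2(CPM + 0.1). Alternatives were DESeq2 size factors, the DESeq2 1.42.0 Wald test, other filters, the replicate number as a block, leaving out each library, leaving out both HTB replicate 2 and LTB replicate 1, and a pseudocount of 0.5 CPM. The reads carry no molecular identifiers, so read numbers speak for counting error only.

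The 10 genes and the pathway and marker lists were chosen with earlier results of these data known, and support nothing by their choice. Partner genes were named by a rule. It took a fixed set of partners and the 3 genes of smallest p in each list described. It also took the 5 genes with profiles most like Ifng. Serbp1, Krt18, Thy1, Ido1, Zbtb46, Fscn1, Clec9a, Gm49751 and Gm21970 were named after their values were seen. The same holds for Xcr1, Batf3, Cd209a, Flt3, Itgae, Cd5, Il1r2, Acta1, Atp2a1 and Tnnt3. It also holds for Mertk, C1qa, C1qb, C1qc, Csf1r, Cd14, Adgre1, Fcgr1, Isg15, Ptpn6, Usp18, Stat5a, Stat5b and Cish. A gene that this rule names is not reported here.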

Additional observations from a re-analysis of the deposited data

Results flagged for a closer look

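In 6 of 34 sets of 5 libraries (10 genes and 7 ratios in each group), the highest library stood apart from its group: its gap to the next library exceeded 0.71 of the group's range. For independent, normally distributed values chance gives about 1 in 20 such sets. These sets share genes and libraries, and CPM need not be normal, so that share is no yardstick for the 6. LTB replicate 1 was apart for Ifng, at 14.0 CPM where the other LTB libraries had 2.40 to 4.44, for Ifnar2, at 79.5 CPM where the others had 59.2 to 60.7, and for Il12rb2, at 10.5 CPM where the others had 3.78 to 5.39. This library also had the highest summed T and NK cell markers, 386 and 628 CPM. HTB replicate 1 was apart for Il12rb1, at 5.35 CPM where the other HTB libraries had 2.89 to 3.37, and for Il12rb2, at 2.70 CPM where the others had 1.43 to 1.70. HTB replicate 2, the library with muscle and fat RNA, was apart for Il12a, at 0.456 CPM (11 reads) where the others had 0.0366 to 0.146.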

How the results depend on the processing

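Of 282 values recomputed under the alternatives for the counts, the 10 genes and the 7 ratios, 220 kept their direction and side of the threshold (counts: stayed within 1.5 times) and 1 changed sign, Il12rb2 to T and NK markers, at -0.0012 without LTB replicate 2 (exact permutation test, adjusted p = 0.992). Genes not called that changed sign were Il23a, at 0.18 without HTB replicate 2 and LTB replicate 1 together, and without single libraries Jak1 (-0.027 to 0.0017) and Tyk2 (-0.052 to 0.029). The genes called numbered 2527 with DESeq2's Wald test, 971 with the replicate number as a block, 2908 without HTB replicate 2 and LTB replicate 1 together, and 736 to 3040 without single libraries (1537 in the fit reported). Of the 10 genes, 3 to 7 were called without single libraries and 33 to 41 of the pathway genes. Replicate numbers did not pair the libraries: same-numbered deviations correlated at -0.0007 to 0.11, over 0.1 for 2 of 5 numbers, and 1 of 5 correlated best with its own number. With the replicate block 3 of the 10 genes were called (Ifng, Il12rb1 and Il12rb2); Ifngr1 was -0.33 (adjusted p = 0.0598, edgeR), Il12b -1.99 (0.0653) and Il15 -0.77 (0.051). As paired differences, where 5 pairs cannot go below an exact p of 0.0625, the ratios of Ifnar1 to Ifnar2 (0.37), Il12rb2 to Il12rb1 (0.59) and Ifng to T and NK markers (-0.84) had an adjusted p of 0.146.

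Other changed calls were Ifngr1 at -0.31 with no filter (adjusted p = 0.06), Ifnar1 at 0.15 with DESeq2 (adjusted p = 0.0436), and, without HTB replicate 2 and LTB replicate 1 together, Ifngr2 at -0.25 (adjusted p = 0.0312) and the same 3 ratios at 0.33, 0.67 and -0.73 (exact permutation test, adjusted p = 0.0667 each). A pseudocount of 0.5 CPM put Il12b to Il12a at -1.40 (adjusted p = 0.0417). The cause of these shifts was not tested. Without single libraries, log2 fold changes ran from -3.03 to -2.11 for Ifng, -0.39 to -0.26 for Ifngr1, -0.30 to -0.11 for Ifngr2, 0.11 to 0.16 for Ifnar1, -0.26 to -0.14 for Ifnar2, -2.29 to -1.78 for Il12b, -2.33 to -1.97 for Il12rb1, -1.85 to -1.28 for Il12rb2 and -0.88 to -0.61 for Il15. Ratio differences ran from -0.22 to -0.05 for Ifngr1 to Ifngr2, 0.29 to 0.41 for Ifnar1 to Ifnar2, -2.55 to -1.71 for Il12b to Il12a, 0.51 to 0.70 for Il12rb2 to Il12rb1, -0.94 to -0.67 for Ifng to T and NK markers, -0.0012 to 0.12 for Il12rb2 to the same markers and -1.19 to -0.55 for Il12b to dendritic markers. Il12b and Il12a were too low for the filter of 1 CPM in 5 libraries and have no value there. Depth limits Il12a and the type I interferon genes, where a few reads decide each value.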
